A study of Mus musculus with 15 samples.

Results

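Splenic CD4+CD25+ cells of wild-type (WT) mice, isolated by sorting, were profiled on 6 single-colour Affymetrix whole-transcript arrays, out of 15 arrays in the series. The 6 were taken by their labels, WT replicates 1 to 6, and no measured value entered the choice. The other 9 arrays, from mice without Ikzf2, without Ikzf4 or without both, were not used. Genotype and cell type are all that the labels used here give of the animals: age, sex, strain, treatment and the number of spleens behind an array are not stated. Each array received 15 ng of total RNA, which had been amplified into biotinylated cDNA. The arrays fall into 2 runs of 3 that were normalized apart, WT 4 to 6 and WT 1 to 3, and no label says whether the runs differ in anything else.

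CD4+CD25+ T cells are rich in regulatory T (Treg) cells, which restrain immune responses and are specified by the transcription factor Foxp3. CD25 is the alpha chain of the high-affinity interleukin-2 (IL-2) receptor, and Treg cells depend on IL-2 made by other T cells because Foxp3 represses the Il2 gene. CD25 is also carried by recently activated conventional T cells, so the sorted fraction is not defined by Foxp3 itself. Among the means by which Treg cells act are capture of costimulatory ligands by CTLA-4, uptake of IL-2, generation of adenosine from nucleotides, and release or activation of TGF-beta, IL-10 and IL-35.

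Because the runs share no common scale, each array was converted to percentile ranks over its 35556 probe sets. A percentile of 90 means that the gene's probe set was brighter than 90% of the probe sets on that array. In log2 signal, percentile 50 lay between 4.92 and 4.97 in WT 4 to 6 and between 4.96 and 5.00 in WT 1 to 3. Percentile 90 lay between 8.25 and 8.34 in WT 4 to 6 and between 8.66 and 8.70 in WT 1 to 3, and percentile 99 between 11.83 and 11.87 in WT 4 to 6 and between 11.99 and 12.05 in WT 1 to 3. A percentile mixes the abundance of a transcript with how well the probes of its set hybridize, so ranks of different genes describe signals and not transcript numbers. Of 19938 genes with a probe set of their own, 1308 (6.56%) were at or above percentile 90 on all 6 arrays and are called high here. A further 8741 (43.8%) were under percentile 50 on all 6 and are called low, and 9889 lay between. No gene was high on the arrays of one run and low on those of the other.

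The arrays ranked genes alike, and more so within a run. Spearman's rho across genes was 0.993 to 0.995 between pairs of WT 4 to 6, 0.990 to 0.993 between pairs of WT 1 to 3, and 0.974 to 0.978 across runs; genes are not independent replicates. A gene's percentile had a median SD of 2.39 points over the 6 arrays, 0.256 points for genes with a mean of 95 or more and 3.17 points for those with means between 25 and 50. In genes of other cells 2 arrays of the WT 1 to 3 run stood apart. B cell and neutrophil genes ranked highest in WT 1. Intestinal epithelial genes ranked highest in WT 3. Its sex-linked genes differed from all other arrays: Eif2s3y, on the Y chromosome, lay at 86.1 in WT 3 and between 2.70 and 6.43 elsewhere, and Xist, expressed from the inactive X chromosome, at 25.8 in WT 3 and between 95.97 and 97.1 elsewhere. Without both arrays 1361 genes were high and 8956 low. In sorted bulk RNA fewer cells of a type and less RNA per cell cannot be told apart.

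The labelled cell type was examined first. All 4 of its defining genes were high, at nearly the same rank in both runs. Foxp3 lay at 97.1, 97.4 and 97.4 in WT 4, 5 and 6 and at 97.8, 97.8 and 97.6 in WT 1, 2 and 3, with a mean of 97.5 ± 0.256 (SD, n = 6 arrays, as for all means with an error below). Il2ra, which encodes CD25, lay at 97.8, 97.8 and 97.7 in WT 4, 5 and 6 and at 97.6, 97.9 and 97.8 in WT 1, 2 and 3. Across the 6 arrays these values span less than 1 percentile point for each gene. Ctla4, the coinhibitory receptor that binds CD80 and CD86, lay at 97.7, 97.7 and 97.6 in WT 4, 5 and 6 and at 97.5, 97.9 and 97.7 in WT 1, 2 and 3. Ikzf2, which encodes Helios, a zinc finger factor of the Ikaros family abundant in thymus-derived Treg cells, lay at 96.99, 97.3 and 97.3 in WT 4, 5 and 6 and at 96.8, 97.3 and 97.4 in WT 1, 2 and 3. The runs overlapped for Il2ra, Ctla4 and Ikzf2. Those of Foxp3 did not, with at most 97.4 in WT 4 to 6 and at least 97.6 in WT 1 to 3. For scale, genes with a mean of 95 or more had a median absolute run difference of 0.323 points, so close ranks are usual there.

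The means of 22 core Treg genes had a median of 92.0, against 51.3 over all 19938 genes. None was low and 10 were high, against 43.8% low and 6.56% high among all genes. Besides the defining genes these were Il2rb (98.2 ± 0.268), the signalling beta chain of the IL-2 receptor, Izumo1r (97.1 ± 0.433), which encodes folate receptor 4, Tnfrsf4 (96.97 ± 0.477), which encodes OX40, Gpr83 (95.2 ± 1.49), Tnfrsf18 (95.1 ± 0.297), which encodes GITR, and Capg (93.8 ± 1.404), an actin-capping protein. Just under the limit on some arrays were Penk (mean 93.1), the enkephalin precursor, Tnfrsf9 (90.9), which encodes 4-1BB, Lrrc32 (90.8), which encodes the latent TGF-beta anchor GARP, Klrg1 (90.9), an inhibitory lectin of effector cells, and Nrp1 (90.4), which encodes neuropilin-1. The last places went to Swap70 (79.7), Entpd1 (78.8), which encodes the ectonucleotidase CD39, and Gpr15 (56.6 ± 2.56), a homing receptor for the large intestine.

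**Figure D1:**
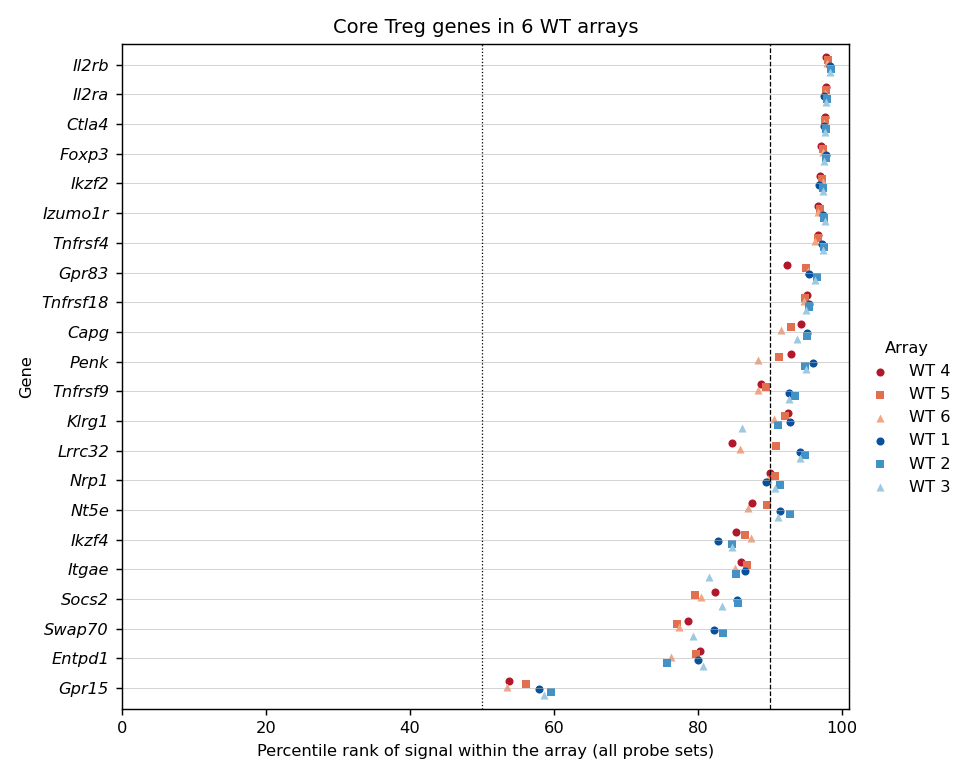
Each row is a core Treg gene and each point an array, placed by the gene's percentile rank over all probe sets of that array. Red points are WT 4 to 6 and blue points WT 1 to 3, the dashed line marks percentile 90 and the dotted line percentile 50. Il2rb, Il2ra, Ctla4, Foxp3 and Ikzf2 sit between 96.8 and 98.5 on all 6 arrays, while Gpr15 sits between 53.5 and 59.7.

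Ranks were set against the run with limma, as WT 4 to 6 minus WT 1 to 3 in percentile points, over 10743 genes with a mean of 50 or more in either run. Of these, 4249 (39.6%) passed at an adjusted p of 0.05, 1310 (12.2%) higher and 2939 (27.4%) lower in WT 4 to 6. The median difference over the genes tested was -0.82 points, and called differences had a median size of 5.16 points. That split depends on the scale: ranks over the 1-symbol probe sets alone gave 1745 higher and 1890 lower, and log2 signals less each array's median gave 763 higher and 6092 lower, with a median shift of -0.34 over the genes tested. Where a gene is said below to differ by run, it is this technical contrast, with 3 arrays a run. No label says that the arrays came from separate animals. The adjusted p-values thus cover only scatter among these arrays, part of which may be technical. In this fit each gene's variance is drawn toward 1 value shared by all genes tested, which is wide for the brightest genes.

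Of the 22 core Treg genes, 7 were lower in WT 4 to 6 and none was higher (4 lower and 1 higher with ranks over 1-symbol probe sets). Among all genes tested 27.4% were lower and 12.2% higher, so the share lower was near that of all genes. The 7 were Penk, Tnfrsf9, Lrrc32, Nt5e, Socs2, Swap70 and Gpr15, by 3.75 to 7.26 points. Lrrc32 moved most, at 84.7, 90.9 and 85.8 in WT 4, 5 and 6 against 94.2, 94.9 and 94.2 in WT 1, 2 and 3, and the runs did not overlap (difference -7.26 points, SE 1.66, limma adjusted p = 0.021). Nt5e, which encodes CD73, the enzyme that makes adenosine from AMP, lay at 87.5, 89.6 and 87.03 in WT 4, 5 and 6 and at 91.5, 92.8 and 91.1 in WT 1, 2 and 3 (difference -3.75 points, SE 0.879, limma adjusted p = 0.022). Il2ra, Ctla4 and Ikzf2 differed by -0.01 to -0.04 points between the runs, with standard errors of 0.38 to 0.41, and Foxp3 by -0.40 points (SE 0.39). These standard errors rest largely on the shared variance. Genes with a mean of 95 or more had a median SD of 0.130 points within WT 4 to 6 and 0.124 within WT 1 to 3. For means of 50 to 75 it was 1.58 and 1.33.

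All 11 measured genes listed for the T cell receptor (TCR) complex, its coreceptors and other T cell surface molecules were high (median 98.0). None differed by run, against 39.6% called among all genes tested. Cd3e lay at 98.3, 98.3 and 98.3 in WT 4, 5 and 6 and at 98.2, 98.3 and 98.3 in WT 1, 2 and 3, and the other invariant CD3 chains, Cd3g (98.2) and Cd3d (98.03), stood beside it. Cd2 (98.4), Thy1 (98.4) and Ptprc (98.4), the leukocyte phosphatase CD45, are surface molecules outside the complex and ranked slightly above them. Cd4 itself, the coreceptor used in the sort, lay at 95.1, 95.1 and 95.4 in WT 4, 5 and 6 and at 95.3, 95.6 and 95.2 in WT 1, 2 and 3. The lowest was Cd247, the zeta chain that carries most of the signalling motifs, at 92.5 ± 0.687.

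Downstream of the receptor 9 of 18 measured signalling genes were high and none was low (median 92.0), against 6.56% and 43.8% of all genes. The adaptors Lat (98.2 ± 0.0305) and Lcp2 (97.1 ± 0.309), whose product is SLP-76, led them. Prkcq, the T cell kinase that links the receptor to NF-kB, lay at 96.4, the ubiquitin ligase gene Cblb at 95.99, and Fyn, a Src family kinase, at 95.7. Zap70, the kinase that docks on the zeta chain, stood lower, at 83.7, 85.1 and 82.9 in WT 4, 5 and 6 against 88.5, 88.9 and 87.5 in WT 1, 2 and 3, with no overlap between runs (difference -4.39 points, SE 0.7602, limma adjusted p = 0.0091). Nfatc2 (difference -4.29 points, SE 0.512, limma adjusted p = 0.0034) and Plcg1 (difference -2.34 points, SE 0.681, limma adjusted p = 0.042) were also lower in WT 4 to 6, and Ptpn22 (difference 2.20 points, SE 0.413, limma adjusted p = 0.011) and Malt1 (difference 2.36 points, SE 0.5696, limma adjusted p = 0.024) were higher. Thus 2 of 18 tested were higher and 3 lower, against 12.2% higher and 27.4% lower among all genes tested. Bcl10 (69.4 ± 2.48) and Pag1 (64.02 ± 0.967) had the lowest ranks of the group. Lck was not analysed here.

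**Figure D2:**
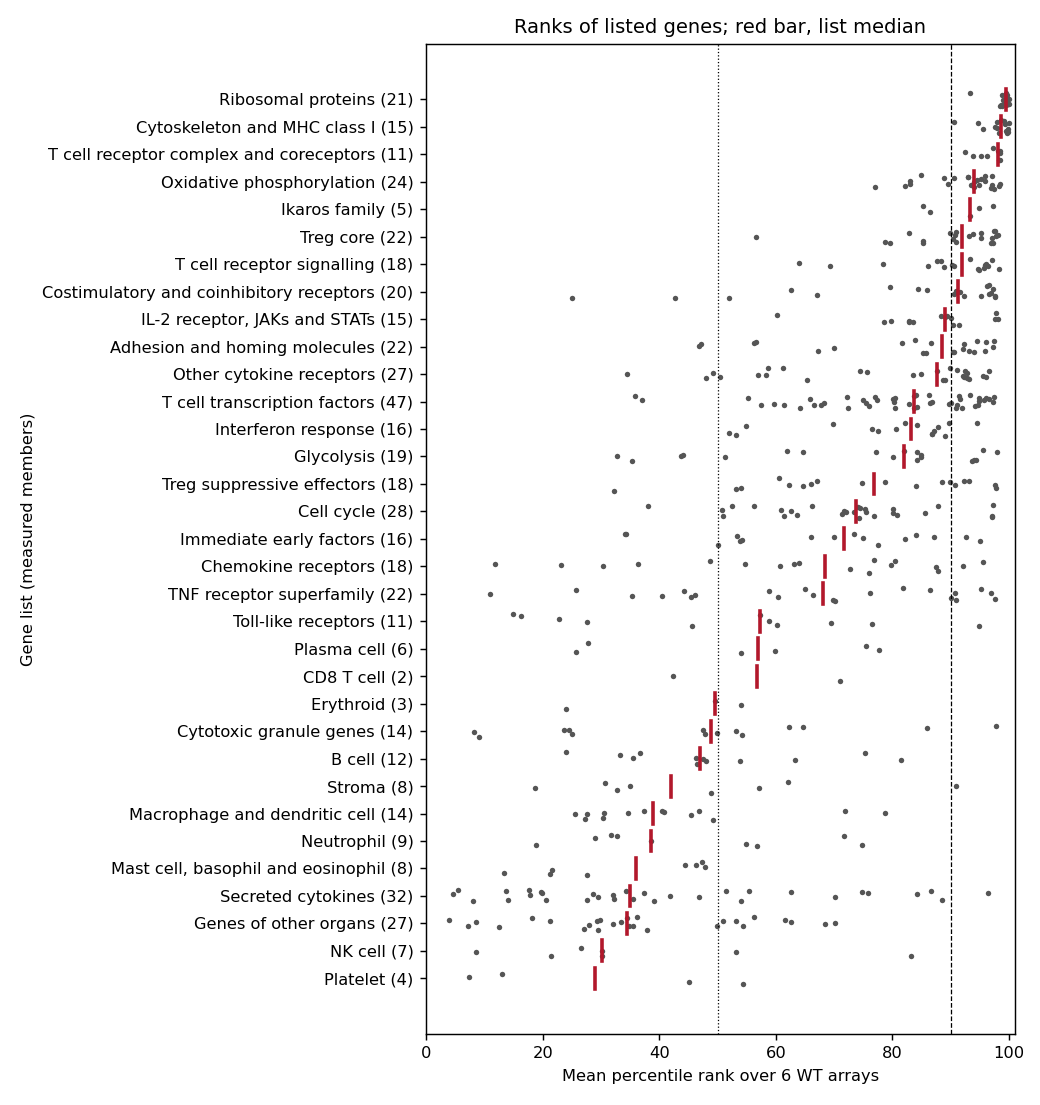
Each grey point is a gene, placed by its mean percentile rank over the 6 WT arrays, and each row is a gene list with its number of measured members; the small vertical scatter only separates points. Red bars mark list medians, the dashed line percentile 90 and the dotted line percentile 50. Ribosomal protein genes (median 99.5), cytoskeleton and MHC class I genes (98.6) and genes of the TCR complex list (98.0) stand at the top, secreted cytokine genes (34.9) near the bottom beside genes of other organs (34.4).

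Genes of protein synthesis held most of the highest ranks. Rps29, a protein of the small ribosomal subunit, had the highest mean (99.98), and 14 of the top 20 genes encode ribosomal proteins. The remaining 6 were Baiap2l1 (99.97), an adaptor that links membrane curvature to actin, Actb (99.94), the translation elongation factor gene Eef1a1 (99.91), the actin-binding thymosin gene Tmsb10 (99.86), the small nuclear RNA Rn7sk (99.79), which holds the elongation kinase P-TEFb inactive, and COX2 (99.62), a mitochondrially encoded subunit of cytochrome c oxidase. By symbol, 51 of 60 ribosomal protein genes were high. The ribosomal protein genes at the lowest ranks were the tissue-restricted paralogs Rpl3l (20.8), Rpl39l (22.5) and Rpl10l (33.8). Many ribosomal genes have near-identical processed copies, so a probe set may read more than 1 of them.

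The median of the means was 94.0 for genes of oxidative phosphorylation and 81.9 for those of glycolysis. Of 24 respiratory chain genes, 15 were high and none was low, led by the cytochrome oxidase subunits Cox6c (98.4) and Cox6a1 (98.3); Sdhd, a membrane anchor of complex II, was last at 76.96. Of 19 glycolytic genes 5 were high and 2 low. The shares over all genes were 6.56% high and 43.8% low. Hk1 (97.9 ± 0.574) was high whereas Hk2, a hexokinase induced on activation, lay at 38.02, 41.1 and 43.4 in WT 4, 5 and 6 and at 44.6, 51.2 and 45.9 in WT 1, 2 and 3 and Hk3 at 35.4. Ldha (93.6) was high and the testis form Ldhc (32.7) low. By run, 10 of 16 tested glycolytic genes and 6 of 24 respiratory genes were lower in WT 4 to 6, and 1 respiratory gene, Uqcrfs1, was higher; 27.4% of all genes tested were lower, and the respiratory share was near that.

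Genes that mark dividing cells were intermediate. Of 28 cell cycle genes 3 were high and 1 low, against 6.56% high and 43.8% low among all genes. The high genes were Ccnd2 (97.3 ± 0.201), the G1 cyclin of lymphocytes, Pcna (97.1 ± 0.177), the replication clamp, and Cdkn1b (97.1 ± 0.362), which encodes the inhibitor p27. Mki67 lay at 83.9, 78.8 and 80.3 in WT 4, 5 and 6 and at 80.8, 81.3 and 75.9 in WT 1, 2 and 3, with overlapping runs. Top2a (80.7) stood with it, while the mitotic genes Plk1 (50.7) and Bub1 (38.1) ranked lowest and Bub1 was low on all 6 arrays. By run 9 of 27 tested members were lower in WT 4 to 6 and none was higher (5 lower and 1 higher over 1-symbol probe sets). Among all genes tested 27.4% were lower, and the share of cell cycle genes was near that.

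Promoters differed in CpG content along the ranking. The window searched is the 250 bases before a RefSeq start site (GRCm38.p6), in which the dinucleotide CG was counted; the same CG lies on both strands. An entry was found for 15006 of 18556 protein-coding genes (80.9%), and a gene with several starts took the mean. The median was 11.7 CG over all these genes, and 56.0% had at least 10. Among high genes the median was 18 and 80.2% had at least 10. Below percentile 10 the median was 1 and 6.997% had at least 10, between 10 and 25 it was 3 (22.7%), between 50 and 75 it was 15 (71.0%), and between 75 and 90 it was 17 (80.9%). In the top bin, from 95 to 100, the share with at least 10 was 74.9%, below the 82.9% of the bin from 90 to 95. No CG counts are given for low genes as a class or for percentiles 25 to 50. An entry was found for 79.3% and 77.9% of their protein-coding genes, against 80.9% of all. The letters TATAAA, on either strand within the 50 bases next to the start, occurred in 2.83% of high genes and 4.41% of all. The share was 1.40% between percentiles 90 and 95 and 4.57% from 95 to 100.

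The contrast within the high class is shown by 3 promoters and set beside that of a low gene. Eef1a1 has 18 CG (chr9:78481725-78481974, minus strand), whereas the T cell genes Cd3d (chr9:44981536-44981785, plus strand) and Il2ra (chr2:11642542-11642791, plus strand) have 0 and 3 at mean percentiles of 98.03 and 97.8. Il6 (chr5:30012864-30013113, plus strand), an inflammatory cytokine gene at a mean percentile of 5.496, also has 3. Capitals mark each CG.
Eef1a1: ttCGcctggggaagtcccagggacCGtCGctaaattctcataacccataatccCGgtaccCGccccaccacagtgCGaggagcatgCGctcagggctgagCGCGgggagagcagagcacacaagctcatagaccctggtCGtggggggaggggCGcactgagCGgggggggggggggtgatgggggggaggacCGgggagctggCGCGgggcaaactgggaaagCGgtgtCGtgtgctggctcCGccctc
Cd3d: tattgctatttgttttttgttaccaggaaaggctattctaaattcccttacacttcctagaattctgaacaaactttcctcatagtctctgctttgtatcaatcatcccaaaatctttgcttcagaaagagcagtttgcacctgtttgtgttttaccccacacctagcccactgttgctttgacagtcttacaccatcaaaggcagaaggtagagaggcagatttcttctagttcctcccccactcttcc
Il2ra: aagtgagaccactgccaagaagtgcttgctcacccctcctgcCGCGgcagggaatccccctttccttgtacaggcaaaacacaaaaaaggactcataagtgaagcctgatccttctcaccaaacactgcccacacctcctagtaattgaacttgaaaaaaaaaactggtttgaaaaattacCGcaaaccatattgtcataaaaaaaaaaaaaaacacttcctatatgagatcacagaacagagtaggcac
Il6: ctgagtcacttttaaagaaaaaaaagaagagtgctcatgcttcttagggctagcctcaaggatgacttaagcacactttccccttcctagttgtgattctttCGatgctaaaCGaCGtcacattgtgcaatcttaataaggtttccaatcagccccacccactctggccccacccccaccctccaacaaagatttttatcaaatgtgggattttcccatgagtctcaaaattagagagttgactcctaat

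IL-2 reaches the nucleus through its receptor chains, the kinases JAK1 and JAK3 and STAT5. Of 15 measured genes 4 were high and none low: Il2rb, Il2ra, Jak1 (97.7 ± 0.0907) and Stat4 (91.5 ± 0.847), a STAT better known downstream of IL-12. The shares over all genes were 6.56% high and 43.8% low. Stat5b lay at 84.997, 85.9 and 87.4 in WT 4, 5 and 6 and at 90.2, 90.5 and 90.7 in WT 1, 2 and 3, and Stat5a at 76.9, 77.5 and 81.02 in WT 4, 5 and 6 and at 87.1, 87.8 and 87.3 in WT 1, 2 and 3. Both STAT5 genes were lower in WT 4 to 6 on every array (difference -8.94 points, SE 1.17, limma adjusted p = 0.0043 for Stat5a). In all 7 of 15 genes tested differed by run, each lower in WT 4 to 6, against 27.4% lower among all genes tested. Among the feedback inhibitors Cish (88.995 ± 1.37) and Socs2 (82.8 ± 2.51) ranked above Socs1 (60.3 ± 3.09), which was last. Il2rg and Jak3 were not analysed here.

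Other cytokine receptors covered a wide range. Of 27 measured, 9 were high and 1 low (median 87.6), against 6.56% high and 43.8% low among all genes. Il7r, which encodes the IL-7 receptor alpha chain, usually scarce at the Treg cell surface, had the highest rank at 96.6, 96.6 and 97.1 in WT 4, 5 and 6 and at 97.1, 95.7 and 95.97 in WT 1, 2 and 3. The shared IL-6 family chain Il6st (96.1 ± 0.238), the type I interferon receptor gene Ifnar2 (95.5 ± 0.294) and Il4ra (93.2 ± 0.461) followed. Tgfbr1, the kinase chain that responds to TGF-beta, was high (92.04 ± 1.09), and Tgfbr2, which binds the ligand, lay at 84.8 ± 0.394. Il12rb2, the IL-12 receptor chain restricted to type 1 cells, was the low gene, at 35.5, 30.6 and 31.8 in WT 4, 5 and 6 and at 35.1, 35.1 and 38.3 in WT 1, 2 and 3. Il23r was 47.995 on average and differed by run, at 55.2, 53.5 and 54.8 in WT 4, 5 and 6 against 40.2, 35.8 and 48.6 in WT 1, 2 and 3 (difference 12.98 points, SE 3.23, limma adjusted p = 0.027). Il18rap, the accessory chain of the IL-18 receptor, was likewise higher in WT 4 to 6 (difference 10.52 points, SE 2.34, limma adjusted p = 0.019), and Acvr1b, Il27ra, Ifngr1 and Il21r were lower. Thus 2 of 26 tested were higher and 4 lower, against 12.2% higher and 27.4% lower among all genes tested. Il1r2, the decoy receptor for IL-1, varied most, from 44.3 in WT 6 to 75.4 in WT 1.

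Genes of secreted cytokines mostly ranked low, even where their receptors ranked high. Of 32 measured 19 were low and 1 was high, with a median of 34.9, against 43.8% low and 6.56% high among all genes. Ltb, a membrane-anchored lymphotoxin subunit that lymphocytes make at rest, was the high gene, at 95.1, 94.6 and 95.2 in WT 4, 5 and 6 against 97.9, 97.8 and 97.9 in WT 1, 2 and 3 (difference -2.94 points, SE 0.39998, limma adjusted p = 0.0048). Tgfb1 (88.5 ± 1.66), Tnf (86.6 ± 1.93) and Lta (84.3 ± 3.82) came next. These 4 genes held the top places in both runs.

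Cytokines tied to suppression ranked apart from each other. Il10, the immunosuppressive cytokine, lay at 51.4, 52.4 and 46.6 in WT 4, 5 and 6 and at 61.5, 61.6 and 50.6 in WT 1, 2 and 3, and was above percentile 50 on 5 of the 6 arrays. Of the chains of IL-35, Ebi3 lay at 74.8 ± 4.799 and Il12a was low at 32.2 ± 6.83. Among TGF-beta genes Tgfb2 (27.6) and Tgfb3 (28.6) were low on all 6 arrays.

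Helper cytokines ranked near or below the median. Ifng, the type 1 cytokine, lay at 51.2, 55.1 and 45.1 in WT 4, 5 and 6 and at 48.6, 56.2 and 52.9 in WT 1, 2 and 3. Il4 (32.01 ± 4.18) and Il5 (17.7 ± 4.14), of type 2 cells, were low, while Il13 lay at 55.5 ± 3.03. Il17a (46.8 ± 2.03) and Il17f (37.4 ± 2.27), of type 17 cells, were low on all 6 arrays. Il2 lay at 33.96, 35.3 and 32.3 in WT 4, 5 and 6 and at 49.2, 51.5 and 48.4 in WT 1, 2 and 3. It passed percentile 50 on 1 array and was outside the genes tested, so its run difference was not tested. At the foot of the list Il3 (7.999 ± 1.82), Il6 (5.496 ± 1.61) and Tslp (4.64 ± 1.48) were under percentile 11 on every array.

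**Figure D3:**
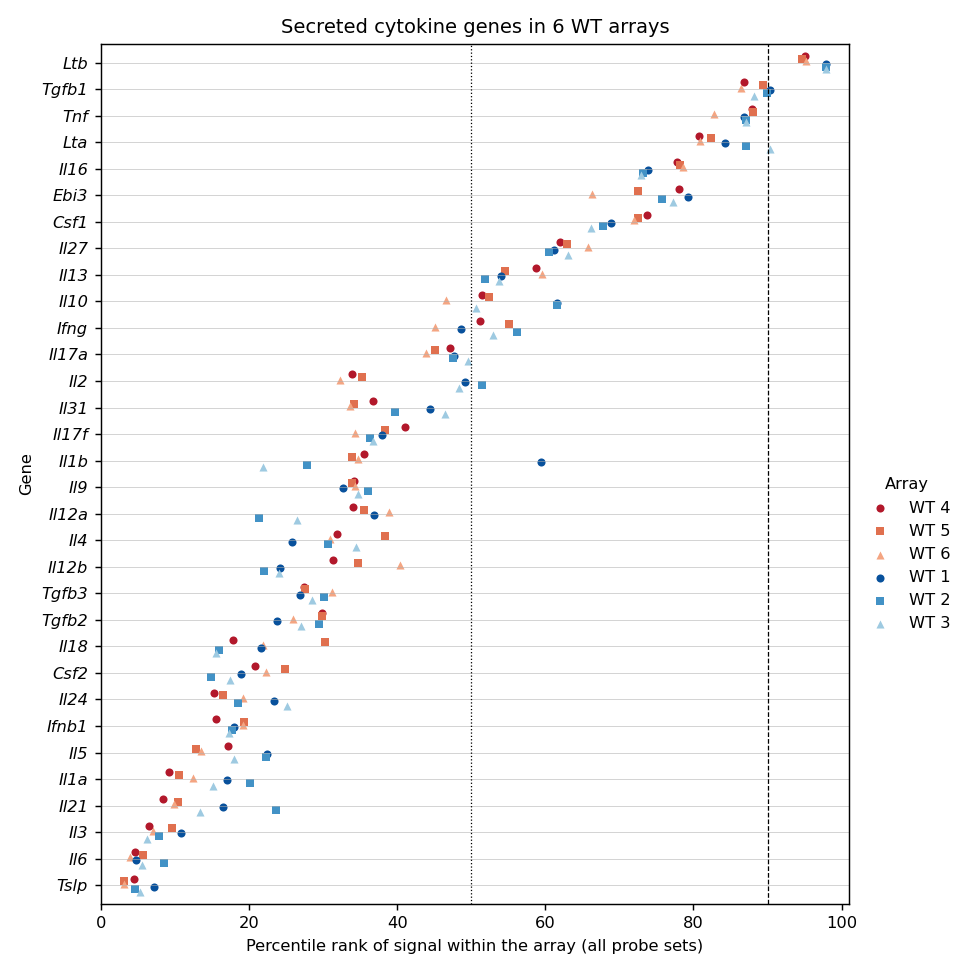
Each row is a secreted cytokine gene and each point an array, placed by percentile rank over all probe sets; red points are WT 4 to 6 and blue points WT 1 to 3. The dashed line marks percentile 90 and the dotted line percentile 50. Ltb is right of the dashed line on all 6 arrays, Il10 and Ifng straddle the dotted line, and Il1b reaches 59.4 in WT 1 but 21.9 to 35.5 on the other arrays.

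Costimulatory and coinhibitory receptors were mostly bright. Of 20 measured, 10 were high and 2 low (median 91.2), against 6.56% high and 43.8% low among all genes. Ctla4, Cd27 (97.6 ± 0.277), Cd5 (97.3 ± 0.294) and Tnfrsf4 led, with Icos (96.6 ± 0.526), the inducible costimulator, Cd96 (96.6 ± 0.406), Cd28 (96.2 ± 0.425), Tigit (92.3 ± 1.17) and Cd226 (91.6 ± 0.798) also high. Pdcd1, which encodes PD-1, lay at 82.4, 85.2 and 79.2 in WT 4, 5 and 6 and at 76.8, 79.7 and 74.2 in WT 1, 2 and 3, and Lag3, an MHC class II binder, at 67.1 ± 2.41. Crtam (42.7) and Havcr2, which encodes TIM-3, were low. Havcr2 lay at 14.5, 10.3 and 11.2 in WT 4, 5 and 6 and at 40.5, 39.1 and 34.3 in WT 1, 2 and 3. The gene was outside those tested, so its run difference was not tested. By run Btla was higher in WT 4 to 6 (difference 3.15 points, SE 0.664, limma adjusted p = 0.016), and Tnfrsf9 and Cd160 were lower. No other of the 18 tested was called, against 12.2% higher and 27.4% lower among all genes tested.

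Within the wider TNF receptor superfamily the genes divided. Only Cd27, Tnfrsf4 and Tnfrsf18 of 22 measured were high, Tnfrsf9 and Tnfrsf1b (90.8 ± 0.862), which encodes the TNF receptor linked to Treg growth, had means above 90, and Fas, the death receptor, lay at 90.01 ± 0.618. Tnfrsf1a, the other TNF receptor gene, lay at 70.7, 72.2 and 70.7 in WT 4, 5 and 6 and at 82.97, 81.5 and 78.8 in WT 1, 2 and 3, with no overlap (difference -9.87 points, SE 1.19, limma adjusted p = 0.0035). The 6 low genes were Ltbr, Tnfrsf19, Tnfrsf21, Tnfrsf11a, Tnfrsf17 and Eda2r, and Eda2r, an ectodysplasin receptor, was last at 11.03 ± 0.702. Among all genes 6.56% were high and 43.8% low. By run 6 of 16 tested were lower in WT 4 to 6 and none was higher (3 of 15 lower over 1-symbol probe sets), against 27.4% lower among all genes tested.

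Chemokine receptors ranked from the lymph node homing receptor Ccr7 downwards. Ccr7 lay at 94.7, 95.1 and 95.6 in WT 4, 5 and 6 and at 95.8, 96.1 and 95.6 in WT 1, 2 and 3, and Cxcr4, the CXCL12 receptor, at 90.7, 91.7 and 94.5 in WT 4, 5 and 6 and at 93.99, 90.9 and 90.3 in WT 1, 2 and 3. Those were the only 2 of 18 measured that were high, against 6.56% of all genes. Ccr4 (87.8 ± 1.95) and Cxcr3 (87.4 ± 1.92), receptors for skin and inflammatory sites, followed, then Ccr8 (80.4 ± 4.92), a receptor of activated Treg cells, and Ccr6 (79.7 ± 1.74). Ccr2 ranged over 84.2, 81.4 and 81.2 in WT 4, 5 and 6 and 78.9, 74.3 and 61.3 in WT 1, 2 and 3, with WT 3 the lowest array. The 4 low genes were Cxcr1, Xcr1, Ackr3 and Ccr1, the last at 11.8 ± 1.12, against 43.8% low among all genes. Ccr6 and Ccr9, the gut receptor, were lower in WT 4 to 6 by 2.86 and 5.20 points, the only calls among 14 tested (1 lower over 1-symbol probe sets). Among all genes tested 27.4% were lower.

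Adhesion and homing genes were high in 9 of 22 cases and low in none (median 88.6), against 6.56% and 43.8% of all genes. S1pr1, the receptor that lets lymphocytes leave lymphoid tissue, lay at 97.4 ± 0.555, Selplg, the selectin ligand PSGL-1, at 97.2 ± 0.549, and the integrin genes Itgb2 (95.97), Itga4 (95.8) and Itgal (94.5) followed. Itgae, which encodes the CD103 chain that binds E-cadherin, lay at 85.2 ± 1.94. Cd44, raised on antigen-experienced cells, was higher in WT 4 to 6, at 86.4, 86.3 and 86.5 in WT 4, 5 and 6 against 80.8, 81.7 and 81.2 in WT 1, 2 and 3 (difference 5.16 points, SE 0.431, limma adjusted p = 0.0016). Itga5, the fibronectin receptor chain, was lower (42.5, 42.6 and 41.1 in WT 4, 5 and 6 against 50.9, 51.6 and 52.6 in WT 1, 2 and 3, difference -9.62 points, SE 0.693, limma adjusted p = 0.0013). For both genes the runs did not overlap. In all 3 of 22 members tested were higher and 5 lower in WT 4 to 6. These counts were near the 12.2% higher and 27.4% lower among all genes tested. They became 2 higher and 1 lower with ranks over 1-symbol probe sets, and 3 higher and 15 lower with log2 signals less the median.

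Of 47 T cell transcription factors 13 were high and 2 low (median 83.6), against 6.56% high and 43.8% low among all genes. Foxp3 stood first, and Ets1 (97.3 ± 0.228) and Satb1 (96.7 ± 0.394), a chromatin organiser needed in thymic Treg precursors, came next. Myc (96.1 ± 0.662), Klf3 (95.8 ± 0.284), Tox (94.9 ± 0.664), Rel (94.8 ± 0.306), whose product c-Rel acts at Foxp3, Lef1 (94.1 ± 0.611) and Foxo1 (93.4 ± 1.07) were also high. Among lineage factors Gata3, of type 2 cells, lay at 90.3, 90.3 and 88.5 in WT 4, 5 and 6 and at 93.6, 93.6 and 92.3 in WT 1, 2 and 3 (difference -3.53 points, SE 0.738, limma adjusted p = 0.016). Tbx21, which encodes the type 1 factor T-bet, lay at 56.1, 58.3 and 53.01 in WT 4, 5 and 6 and at 50.8, 55.3 and 58.04 in WT 1, 2 and 3, and Bcl6, of follicular helper cells, at 80.3 ± 3.15. Gata3 thus ranked above 88 and Tbx21 below 59 on every array. Prdm1, which encodes the effector factor Blimp-1, lay at 67.8 ± 3.57, and Zbtb16 (36.99 ± 2.45), of innate-like T cells, and Zeb2 (35.9 ± 2.71), of terminal effectors, were low.

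By run 18 of 45 tested factors were lower in WT 4 to 6 and 4 were higher (15 and 5 over 1-symbol probe sets). Among all genes tested 27.4% were lower and 12.2% higher. The largest difference was in Relb, an NF-kB subunit, at 58.8, 56.95 and 58.1 in WT 4, 5 and 6 against 70.2, 70.5 and 69.9 in WT 1, 2 and 3 (difference -12.26 points, SE 0.615, limma adjusted p = 0.00068). Tcf3, an E protein, lay at 72.3, 71.2 and 71.7 in WT 4, 5 and 6 against 84.1, 83.5 and 81.7 in WT 1, 2 and 3, and its antagonist Id3 at 77.1, 78.7 and 78.2 in WT 4, 5 and 6 against 88.2, 87.9 and 86.6 in WT 1, 2 and 3. In these 3 genes the runs were separated by more than 7 points. Id2, another E protein antagonist, was higher instead, at 85.98, 86.3 and 82.2 in WT 4, 5 and 6 against 78.7, 72.7 and 76.8 in WT 1, 2 and 3 (difference 8.76 points, SE 1.89, limma adjusted p = 0.017), as were Hif1a, Runx1 and Rora.

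Ikaros family genes were all in the upper part of the array. Ikzf2, Ikzf1 (94.9 ± 0.278), which encodes Ikaros itself, and Ikzf3 (93.3 ± 0.9295), which encodes Aiolos, were high. Ikzf5 lay at 85.3, 87.6 and 88.7 in WT 4, 5 and 6 and at 84.6, 86.3 and 86.7 in WT 1, 2 and 3, and Ikzf4, which encodes the Foxp3 partner Eos, at 85.3, 86.5 and 87.4 in WT 4, 5 and 6 and at 82.8, 84.8 and 84.8 in WT 1, 2 and 3. None of the 5 differed by run at the main scale.

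Immediate early genes, which respond to antigen receptor signals and to handling of cells, were spread from 34.1 to 94.9. Egr2, tied to T cell tolerance, was high at 95.8, 96.4 and 95.2 in WT 4, 5 and 6 and at 93.6, 94.99 and 93.6 in WT 1, 2 and 3, as was the phosphatase gene Dusp1 (92.7 ± 0.603). Nr4a1, an orphan nuclear receptor gene that reports TCR signals, lay at 82.99, 86.5 and 82.4 in WT 4, 5 and 6 against 90.1, 91.5 and 89.1 in WT 1, 2 and 3 (difference -6.29 points, SE 1.28, limma adjusted p = 0.015). Jun lay at 68.4, 63.2 and 61.4 in WT 4, 5 and 6 against 80.5, 84.9 and 82.1 in WT 1, 2 and 3, the largest call of the group (difference -18.19 points, SE 2.0998, limma adjusted p = 0.0032), while its partner Fos stood near the median in both runs, at 57.5, 52.3 and 49.5 in WT 4, 5 and 6 and at 53.4, 53.9 and 58.1 in WT 1, 2 and 3. Of 14 tested, 8 were lower in WT 4 to 6 and none higher (5 lower over 1-symbol probe sets), against 27.4% lower among all genes tested. Atf3 (34.3 ± 8.71) and Fosl1 (34.1 ± 7.15) were low.

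Genes through which Treg cells act ranged from among the brightest to low. Lgals1, which encodes galectin-1, lay at 97.9, 97.3 and 97.7 in WT 4, 5 and 6 and at 97.97, 97.9 and 97.5 in WT 1, 2 and 3, and with Ctla4 and Tigit it was 1 of 3 high genes of 18. Itgb8, part of an integrin that activates TGF-beta, lay at 84.1 ± 1.298. Fgl2, a secreted fibrinogen-like suppressor, lay at 59.3, 53.7 and 46.8 in WT 4, 5 and 6 and at 70.8, 69.8 and 62.8 in WT 1, 2 and 3 (difference -14.50 points, SE 3.75, limma adjusted p = 0.030), and Furin, a proprotein convertase, was also lower in WT 4 to 6 (difference -13.17 points, SE 1.75, limma adjusted p = 0.0045). Gzmb, which encodes granzyme B, ranged over 75.2, 53.9 and 49.6 in WT 4, 5 and 6 and 75.02, 73.5 and 60.4 in WT 1, 2 and 3, a spread shared by both runs (SD 11.5 over 6 arrays). Of 14 cytotoxic granule genes 1 was high, the proteoglycan core Srgn (97.8 ± 0.147), and 5 granzymes were low, Gzmk, Gzmf, Gzme, Gzmg and Gzmd. Among all genes 6.56% were high and 43.8% low, so the cytotoxic counts were near the shares of all genes. Prf1, the pore-forming perforin, lay at 62.3 ± 1.81.

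Among Toll-like receptor genes Tlr1 stood alone: it was high at 95.2, 94.6 and 94.6 in WT 4, 5 and 6 and at 95.1, 94.5 and 94.6 in WT 1, 2 and 3, and no other of the 11 genes listed with it passed a mean of 77. Tlr2, which pairs with it at the cell surface, lay at 60.2 ± 1.797, and Tlr3, Tlr4, Tlr13 and Tlr8 were low. With 1 high and 4 low of 11, the group was near the 6.56% high and 43.8% low of all genes. Genes of the interferon response had a median of 83.2, and 1 of 16, Ifi27 (94.6 ± 0.692), was high, near the share of all genes. WT 4 had the highest rank in 11 of these 16 genes. Ifit3, for instance, lay at 94.6, 82.997 and 88.3 in WT 4, 5 and 6 and at 86.7, 89.6 and 84.6 in WT 1, 2 and 3. Rsad2 (51.9 ± 2.42), which encodes viperin, was last. The antiviral gene Mx1 was higher in WT 4 to 6 (difference 12.49 points, SE 3.26, limma adjusted p = 0.031) and Oasl2 lower (difference -15.92 points, SE 1.92, limma adjusted p = 0.0035). No other of the 16 tested was called, against 12.2% higher and 27.4% lower among all genes tested.

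Genes of cells that the sort should leave out were spread over the array below its top. No member of the B cell, plasma cell, NK cell, CD8, macrophage and dendritic cell, neutrophil, erythroid, platelet, mast cell or stroma lists was high on all 6 arrays, and 37 of their 73 measured members (50.7%) were low, against 43.8% of all genes. The highest of them was Pecam1, an endothelial gene that leukocytes also express, at a mean of 90.8. Of 12 B cell genes 1 was low, of 6 plasma cell genes 2 and of 9 neutrophil genes 4. Of 14 macrophage and dendritic cell genes 10 were low, and the highest was Lyz2, the myeloid lysozyme gene, at 78.7 ± 10.2. Cd8a was low at 42.4 ± 3.47, whereas Cd8b1 lay at 65.9, 66.2 and 67.1 in WT 4, 5 and 6 and at 74.8, 73.96 and 78.4 in WT 1, 2 and 3 (difference -9.36 points, SE 1.25, limma adjusted p = 0.0046). The NK receptor gene Ncr1 was low at 26.6 ± 3.24. For scale, 27 genes of organs such as liver, muscle and testis had a median of 34.4, and 18 of them were low.

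B cell genes moved with WT 1. The median of 12 was 49.9, 48.3 and 49.3 in WT 4, 5 and 6, and 65.6, 37.7 and 38.3 in WT 1, 2 and 3, and 11 of the 12 were highest in WT 1. Ms4a1, which encodes CD20, lay at 53.96, 55.3 and 51.4 in WT 4, 5 and 6 and at 77.1, 23.01 and 24.4 in WT 1, 2 and 3, and Cd79a, a B cell receptor chain, at 63.98, 66.2 and 62.4 in WT 4, 5 and 6 and at 85.7, 50.2 and 51.6 in WT 1, 2 and 3. WT 4 to 6 thus lay between WT 1 and the other arrays of its run. Neutrophil genes showed WT 1 highest too, in 6 of 9 cases, with S100a9, a calcium-binding alarmin, at 82.5, 71.6 and 84.4 in WT 4, 5 and 6 and at 97.6, 50.7 and 62.2 in WT 1, 2 and 3. Il1b (59.4 in WT 1) and Cxcr2 (63.4 in WT 1), both expressed by neutrophils, were also highest there. Their part in other results was not tested.

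WT 3 was the array with intestinal genes, a list added after its values were seen. The median of 20 epithelial genes was 31.5, 32.7 and 34.4 in WT 4, 5 and 6, and 27.997, 25.95 and 53.5 in WT 1, 2 and 3, and 19 of the 20 were highest in WT 3. The fatty acid binding protein genes Fabp1 and Fabp2 lay at 7.25, 10.6 and 9.97 in WT 4, 5 and 6 and at 10.6, 11.9 and 83.2 in WT 1, 2 and 3, and at 6.97, 7.45 and 8.53 in WT 4, 5 and 6 and at 9.16, 7.76 and 88.8 in WT 1, 2 and 3. Defa24, a Paneth cell defensin gene, lay at 57.9 in WT 3 and at 0.606 to 5.63 elsewhere. The 4 defining Treg genes lay between 97.4 and 97.8 on the same array.

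**Figure D4:**
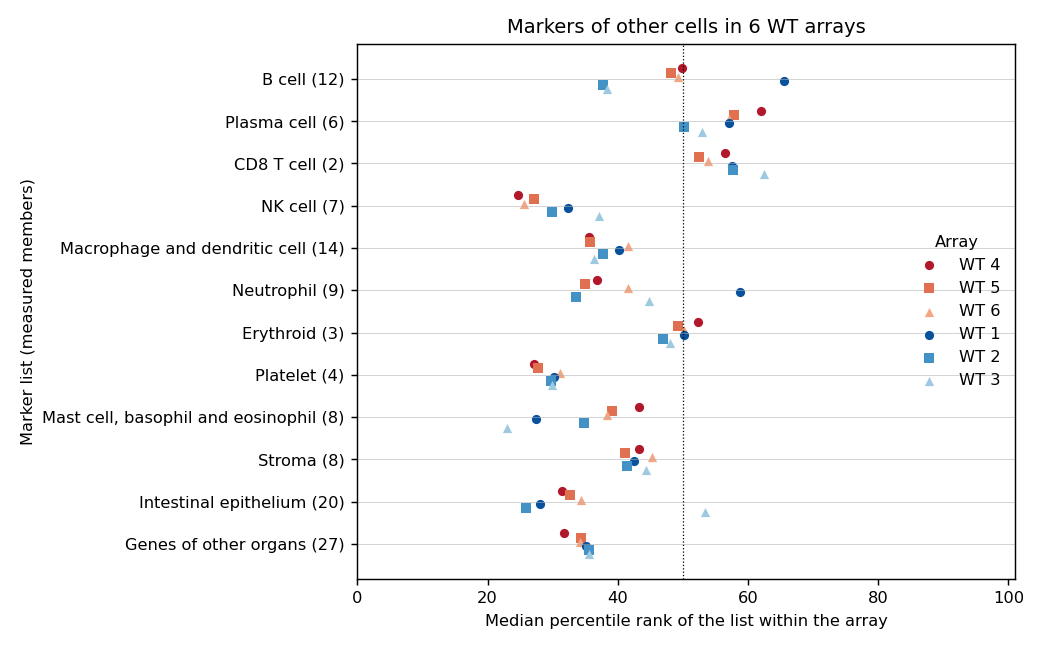
Each row is a list of marker genes with its number of measured members, and each point is the median percentile rank of that list on 1 array; red points are WT 4 to 6 and blue points WT 1 to 3, and the dotted line marks percentile 50. WT 1 stands apart for B cell genes (65.6) and neutrophil genes (58.8), and WT 3 for intestinal epithelium (53.5).

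The largest differences between the runs were in genes outside the T cell lists. AI506816, a long noncoding RNA gene, lay at 8.84, 11.997 and 6.86 in WT 4, 5 and 6 against 89.2, 89.8 and 88.6 in WT 1, 2 and 3 (difference -79.96 points, SE 1.35, limma adjusted p = 2.7e-05). Klk1b22, a tissue kallikrein, lay at 69.2, 90.4 and 89.6 in WT 4, 5 and 6 against 10.3, 16.04 and 12.5 in WT 1, 2 and 3 (difference 70.12 points, SE 6.07, limma adjusted p = 0.0017), and the kallikrein pseudogene Klk1b7-ps was higher as well (difference 44.84 points, SE 1.51, limma adjusted p = 0.00028). These genes were near the bottom of the array in one run and well above its median in the other. BC018473, another long noncoding RNA, was higher in WT 4 to 6 (difference 59.52 points, SE 0.892, limma adjusted p = 2.7e-05), as was Sycp1, a meiotic chromosome protein (difference 39.41 points, SE 6.23, limma adjusted p = 0.0070).

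Antigen receptor genes stood among them in both directions. The TCR alpha variable segment Trav12-2 lay at 1.67, 1.59 and 0.345 in WT 4, 5 and 6 against 54.8, 62.1 and 55.1 in WT 1, 2 and 3 (difference -56.15 points, SE 2.09, limma adjusted p = 0.00032), and Trav7n-5 at 26.1, 18.2 and 24.6 in WT 4, 5 and 6 against 76.3, 75.4 and 70.97 in WT 1, 2 and 3. Both were lower in WT 4 to 6 without overlap, the only calls among 6 tested alpha variable segments, whose median difference was -1.93 points. Among all genes tested 27.4% were lower and 12.2% higher. Immunoglobulin genes ran the other way. Of 6 tested kappa variable segments 5 were higher in WT 4 to 6, such as Igkv10-96 (difference 35.68 points, SE 9.78, limma adjusted p = 0.036), with Igha, the IgA constant region (difference 30.04 points, SE 9.26, limma adjusted p = 0.050), and Jchain, the joining chain of secreted antibody, at 93.4, 91.9 and 91.4 in WT 4, 5 and 6 against 72.2, 47.4 and 69.8 in WT 1, 2 and 3 (difference 29.12 points, SE 6.73, limma adjusted p = 0.021). Of the other plasma cell genes, Xbp1 was lower (difference -5.23 points, SE 0.853, limma adjusted p = 0.0077), Mzb1 (difference 5.63 points, SE 3.896, limma adjusted p = 0.30) and Derl3 (difference 2.85 points, SE 0.896, limma adjusted p = 0.053) did not pass, and Sdc1, low on all arrays and outside those tested, lay between 28.9 and 32.99 in WT 4 to 6 and between 23.5 and 25.4 in WT 1 to 3. The median difference of the 6 plasma cell genes was 5.87 points. The part of plasma cells in this difference was not tested. Variable segments and kallikreins have close relatives, so their probe sets may read more than 1 gene.

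Other genes lower in WT 4 to 6 were Rab6b, a Golgi GTPase, Khdc1a, Abhd14b, Naip5, the flagellin sensor, and the noncoding G530011O06Rik. Rab6b lay at 29.01, 25.3 and 28.6 in WT 4, 5 and 6 against 46.7, 88.6 and 82.9 in WT 1, 2 and 3, with WT 1 between the other arrays of its run and WT 4 to 6. Naip5 lay at 31.04, 25.98 and 20.1 in WT 4, 5 and 6 against 63.7, 53.3 and 63.97 in WT 1, 2 and 3 (difference -34.60 points, SE 4.02, limma adjusted p = 0.0032). In all, 1216 genes (6.10%) had run means more than 10 points apart, and 80 more than 20.

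**Figure D5:**
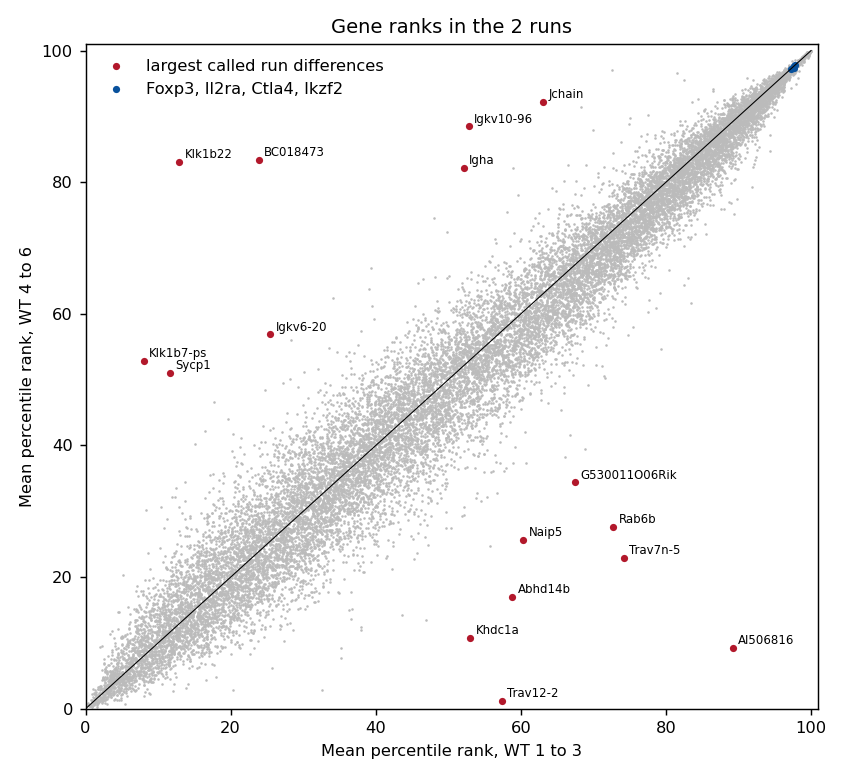
Each point is a gene, placed by its mean percentile rank in WT 4 to 6 (vertical) and in WT 1 to 3 (horizontal), with the line of equal ranks. Red points are the 8 genes in each direction with the largest called run differences, and blue points are Foxp3, Il2ra, Ctla4 and Ikzf2, which lie on the line at the top right. AI506816 is far below the line (9.23 in WT 4 to 6, 89.2 in WT 1 to 3) and Klk1b22 far above it (83.1 in WT 4 to 6, 12.9 in WT 1 to 3).

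MicroRNA genes were read through probe sets for the transcript that carries the hairpin, so mature microRNAs were not measured. Of 300 such genes 202 (67.3%) were low and 1 was high, Mir598 (95.5), against 43.8% low and 6.56% high among all genes. Their median was 27.2. From a list of genes studied in T cells, which was added after values were seen, the miR-181 family shows how copies with 1 seed can rank apart. Mir181d lay at 81.8 ± 5.33, Mir181c at 60.1 ± 2.402, Mir181a-2 at 43.2 ± 5.52, Mir181b-1 at 15.2 ± 5.06 and Mir181a-1 at 8.56 ± 4.37. Mir181b-2, the neighbour of Mir181a-2 on chromosome 2, ranked beside it at a mean of 43.7. The mature forms, from RefSeq (GRCm38.p6), are given with the shared seed, bases 2 to 8, in capitals. Another 3 microRNAs with roles in Treg cells or in hypoxia follow, each with another seed.
miR-181a-5p: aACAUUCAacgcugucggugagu
miR-181b-5p: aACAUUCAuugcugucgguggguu
miR-181c-5p: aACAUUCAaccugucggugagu
miR-181d-5p: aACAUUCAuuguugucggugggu
miR-210-3p: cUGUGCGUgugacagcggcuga
miR-155-5p: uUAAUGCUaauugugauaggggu
miR-10a-5p: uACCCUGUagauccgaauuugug
Mir210, induced by hypoxia, lay at 84.8, 85.1 and 87.9 in WT 4, 5 and 6 and at 81.7, 80.002 and 84.3 in WT 1, 2 and 3. Mir155, a Foxp3 target that sustains IL-2 signalling, lay at 61.1, 57.5 and 58.2 in WT 4, 5 and 6 against 43.5, 48.1 and 51.01 in WT 1, 2 and 3 (difference 11.39 points, SE 2.12, limma adjusted p = 0.011). Mir10a, which in mouse Treg cells is known to be expressed, was near the floor at 3.701 ± 1.02, and Mir146, whose mature product restrains type 1 responses, was low at 16.003 ± 8.78. Of 8 tested members of this list 4 were higher in WT 4 to 6, Mir181d, Mir150, Mir155 and Mir17, and none was lower. Over all microRNA genes 38 of 87 tested were higher and 4 lower, so the list was near the share of its class. The class itself departed from all genes tested, of which 12.2% were higher and 27.4% lower.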

How the data were processed

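RNA of the 6 WT arrays was read from 1 table of all 15 arrays; no column was without a sample. The authors deposited log2 signals; the submitters' processing notes name Affymetrix Expression Console 1.3.1 and RMA, the robust multi-array average. RMA quantile-normalizes arrays processed together and compresses dim signals. The runs were taken from the replicate numbers. On average a pair of arrays had the same log2 value, to the last digit, in 49.3 probe sets within WT 4 to 6, 2129 within WT 1 to 3 and 0.111 across, the pattern of separate normalization. No source used here gives the build behind the array's design. Ranks were taken over all probe sets, ties averaged. Symbols came from the platform annotation and were updated through Entrez to GRCm38.p6: 21789 probe sets had 1 symbol (21698 updated), 1621 several and 12146 none listed. For the 999 genes with several probe sets the one with the highest mean rank was kept.

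The members and the 34 gene lists (509 of 562 genes measured) were chosen with earlier results of these data known. Named by rule were Foxp3, Il2ra, Ctla4 and Ikzf2, the 20 highest means, per list the 4 highest, 3 lowest and the largest run difference (all of lists of 8 or fewer), and the 8 largest called run differences in each direction and 8 largest ranges. Other names, and the lists of intestinal and microRNA genes, were chosen after values were seen. The run difference was fitted with limma 3.58.1 in R 4.3.3 (lmFit and eBayes) with Benjamini-Hochberg adjustment at 0.05. Tested on simulated ranks of 10743 genes for this contrast, it recovered 32%, 78%, 90% and 98% of genes shifted by 5, 10, 20 and 30 points, and 5.10% of calls were unshifted genes. Those shifts were all upward, in 50 genes per size with ranks away from both ends, and noise was independent between genes. In the data far more genes were called and most were lower, a setting that was not simulated. Precision is limited by the number of arrays. Alternatives were other cutoffs, ranking bases, probe set rules, filters, scales and arrays left out.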

Additional observations from a re-analysis of the deposited data

Results flagged for a closer look

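Among 257 named genes and 34 lists, 12 genes and 2 list medians had 1 array whose gap to the nearest of the others exceeded Dixon's critical value for 6 arrays. Chance flags about 1 in 20 groups, and 4.48% of all genes met the criterion. The 12 of 257 named genes were near that share, so their number shows no excess of outlying arrays. Some named genes had also been chosen for their wide range over these same arrays, so the count is not an independent test. WT 3 was the outlying array for 6 of the 12 genes, WT 6 for 3, WT 4, WT 5 and WT 1 for 1 each, and WT 2 for none.

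In WT 3 the Y-linked genes stood above all other arrays: Eif2s3y at percentile 86.1 (2.70 to 6.43 elsewhere), Kdm5d at 79.1 (13.5 to 27.8) and Uty at 62.6 (5.47 to 12.99). Xist stood below, at 25.8 (95.97 to 97.1 elsewhere), and the median of the sex-linked list was 70.9 (13.1 to 16.95). The same array had Fabp1 at 83.2 (7.25 to 11.9) and Fabp2 at 88.8 (6.97 to 9.16), genes of fatty acid transport in the intestine. The labels give no sex and no source of intestinal RNA, and the cause was not tested.

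Fcer2a, the low-affinity IgE receptor gene of B cells, lay at 55.7 in WT 1 and at 13.03 to 25.7 elsewhere, on the array where 11 of 12 B cell genes were highest. In WT 6, Tnf was low for its group at 82.8 (86.9 to 88.0), Il1r2 at 44.3 (63.8 to 75.4), and Rpl27a was high by a small margin at 99.73 (99.61 to 99.65). Cdkn1b lay at 96.3 in WT 4 (97.1 to 97.3 elsewhere), and Kit, the stem cell factor receptor gene, at 44.8 in WT 5 (47.5 to 49.1). The median of genes of other organs was 31.8 in WT 4 and 34.2 to 35.7 elsewhere.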

How the results depend on the processing

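No paired analysis was possible because there was 1 group and the 2 runs share no replicate numbers. The count of high genes was 1308. It moved with the cutoff, to 459 at percentile 95 and 3315 at 80, and was 1315 to 1339 with each array left out in turn. Ranks over 1-symbol probe sets gave 1451, which held all 1308, and the median over probe sets 1228. Low genes numbered 8741, against 6455 under percentile 40 and 3179 under 25, and 8770 to 8855 with an array left out. The 4249 run differences became 6855 with log2 signals less each array's median, 7103 with no filter (of 19938 genes tested) and 2047 for genes at percentile 75 or more (of 5465 tested). They were 4750 with normal scores, 3635 with 1-symbol ranks, and 4775 with a variance trend, an alternative that was chosen after seeing the data, as was leaving out WT 1 and WT 3. With an array left out they were 2743 to 3653, the lowest without WT 2, where a run keeps 2 arrays. No called run difference of a gene named by rule changed direction under these alternatives, but the balance of run calls turned in the adhesion and homing list (3 higher and 5 lower, against 2 and 1 with 1-symbol ranks) and shifted among secreted cytokines (2 and 2, against 3 and 1). Of 257 named genes, 105 mean percentiles moved by more than their SD with 1-symbol ranks. Shifts over all 257 were -3.99 to 1.17 points (median -1.82). With an array left out none of 1542 values moved by that much, but that count cannot show stability. Leaving out a single array cannot shift a mean by as much as the SD over all arrays, whatever the values. Of the run differences of single genes refitted with an array left out, 274 kept significance and 70 lost it. Signal near the floor limits the order of dim genes, and the cause of the shift between scales was not tested.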

Other observations

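Gene classes outside the T cell lists gave a picture of the lower part of the arrays. Of 1027 olfactory receptor genes 989 were low and none was high, against 43.8% low and 6.56% high among all genes. Their median was 14.5, and the highest was the pseudogene Olfr1174 at a mean of 78.8. Among 167 vomeronasal receptor genes, which sense pheromones, 166 were low (median 9.67). Long noncoding RNA genes numbered 675, of which 10 were high and 409 low (median 39.01), against 1280 high and 7922 low of 18556 protein-coding genes (median 52.6). Small nucleolar RNA genes, which guide modification of ribosomal RNA, were few but bright: of 53 by the reference table, 3 were high and 4 low, with a median of 71.1.

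Baiap2l1, best known from epithelial cells, had the next highest mean of all genes after Rps29, at 99.97, with a range of 0.011 points over the 6 arrays. It has 3 probe sets, of which the brightest was used. What its probes read was not tested.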
